A study of Homo sapiens with 8 samples.

Results

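The transcription factor ATF4 and 9 stress-responsive genes counted among its targets were compared between separate A673/TR/shFEZF1 Ewing sarcoma cultures without and with doxycycline. The 10 genes were given by symbol, and the estimated reads of their transcripts were summed per symbol, as was done for all 34792 gene symbols in the data. All 10 passed the filter on low counts, among 15993 genes tested. They comprise 3 transcription factors (ATF4, ATF3 and DDIT3), 2 enzymes (ASNS and CHAC1), 3 inhibitors of kinase or growth signalling (TRIB3, DDIT4 and SESN2), a secreted factor (GDF15) and a surface receptor (VLDLR).

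A673 is an established Ewing sarcoma cell line that carries the EWSR1-FLI1 fusion. The derivative used here holds the tetracycline repressor (TR) and an integrated shRNA against FEZF1, a zinc finger transcription factor, which doxycycline switches on. Poly(A) RNA was sequenced from 4 untreated cultures and 4 cultures given doxycycline (1 µg/mL for 72 h), 1 of each from the polyclonal population, which the labels call bulk, and from clones 3, 5 and 6. The clones were picked by the study for strong loss of FEZF1 protein, all cultures grew in DMEM with serum, blasticidin, puromycin and zeocin, and an effect of doxycycline itself cannot be told apart from that of the shRNA, since every treated culture carries both.

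ATF4 is a basic leucine zipper protein whose level is set mainly at translation. Phosphorylation of the initiation factor eIF2α by any of several stress-sensing kinases lowers protein synthesis as a whole but lets ribosomes reach the ATF4 reading frame, so the protein can rise with little change of its mRNA. ATF4 then pairs with C/EBP and related proteins on a composite DNA element and raises genes for amino acid uptake and synthesis, redox balance and, under lasting stress, growth arrest and death. Only RNA was measured here, so nothing below bears on the amount or activity of ATF4 protein.

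The letters of the C/EBP-ATF composite element, TGATGNAA on either strand (TTNCATCA when read from the other), were searched in RefSeq promoter windows of GRCh38.p14 that run from 250 bases before to 50 bases after a start. They occurred in 3.62% of 35116 windows and in 4.46% of 27305 genes. Among the 10 genes they occurred in ASNS, CHAC1 and ATF3, at the first of 2 listed starts for ASNS and ATF3, and in no window of the other 7. The 3 windows with a match are shown with the match in capitals, followed by those of DDIT4 and GDF15, which moved in every culture and hold no match. The ASNS window (chr7:97872359-97872658, minus strand) has the match 68 bases before the start, the CHAC1 window (chr15:40953221-40953520, plus strand) has it on the other strand 209 bases before the start, and the ATF3 window (chr1:212565157-212565456, plus strand) has it 191 bases before the start. The DDIT4 window is chr10:72273674-72273973 and the GDF15 window chr19:18385908-18386207, both on the plus strand.
ASNS: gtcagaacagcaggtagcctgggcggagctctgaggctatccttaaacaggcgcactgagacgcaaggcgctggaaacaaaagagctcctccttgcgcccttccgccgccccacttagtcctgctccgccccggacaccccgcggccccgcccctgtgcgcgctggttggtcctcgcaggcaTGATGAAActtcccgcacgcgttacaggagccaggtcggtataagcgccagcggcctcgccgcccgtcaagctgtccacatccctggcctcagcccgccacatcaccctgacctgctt
CHAC1: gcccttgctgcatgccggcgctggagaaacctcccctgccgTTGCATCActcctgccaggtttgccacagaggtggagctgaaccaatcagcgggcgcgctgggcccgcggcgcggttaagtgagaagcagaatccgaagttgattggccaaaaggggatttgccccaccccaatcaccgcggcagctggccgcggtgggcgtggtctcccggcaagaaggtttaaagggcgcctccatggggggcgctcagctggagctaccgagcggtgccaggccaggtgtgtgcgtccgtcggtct
ATF3: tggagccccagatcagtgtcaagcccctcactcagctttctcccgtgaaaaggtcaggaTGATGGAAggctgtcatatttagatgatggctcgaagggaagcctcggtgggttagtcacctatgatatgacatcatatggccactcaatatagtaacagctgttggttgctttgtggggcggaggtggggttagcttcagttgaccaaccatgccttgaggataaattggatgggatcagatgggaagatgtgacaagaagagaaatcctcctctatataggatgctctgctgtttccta
DDIT4: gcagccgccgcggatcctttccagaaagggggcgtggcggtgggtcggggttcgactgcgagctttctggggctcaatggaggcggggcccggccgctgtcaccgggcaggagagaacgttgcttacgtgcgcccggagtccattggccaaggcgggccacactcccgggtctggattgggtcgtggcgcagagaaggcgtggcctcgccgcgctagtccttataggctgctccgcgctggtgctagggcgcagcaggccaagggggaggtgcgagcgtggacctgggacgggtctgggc
GDF15: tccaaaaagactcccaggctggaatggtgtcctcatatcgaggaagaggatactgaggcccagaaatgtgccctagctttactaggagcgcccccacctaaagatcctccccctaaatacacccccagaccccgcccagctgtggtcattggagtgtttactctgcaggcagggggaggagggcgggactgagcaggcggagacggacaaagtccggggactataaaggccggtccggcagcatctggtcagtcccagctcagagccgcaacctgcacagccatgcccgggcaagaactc
A match describes the letters in the window and does not show that a protein binds there. The absence of a match covers these windows and these letters only, and neither sequence further out nor other forms of the element were searched. The windows were not linked to the transcripts that carry the reads of a gene.

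Between 26719886 and 42422421 reads per library were assigned to transcripts, of which 89.9% to 91.1% were summed to gene symbols. Levels are given as CPM, counts scaled to the size of the library after TMM normalization, and changes come from edgeR's quasi-likelihood test with the origin of the culture as a block, adjusted by the Benjamini-Hochberg method over all 15993 genes and called at an adjusted p under 0.05. FEZF1 checked the treatment: it stood at 96.4, 70.5, 107 and 74.4 CPM in the untreated polyclonal population and clones 3, 5 and 6 and at 60.6, 43.0, 60.8 and 36.4 CPM with doxycycline, lower in 4 of 4 pairs (log2 fold change -0.81, SE 0.07, edgeR adjusted p = 0.00594). Ewing markers were present, with CD99 at 1520 ± 531 CPM in untreated cultures (SD, n = 4), and of 7 tested NR0B1 and NKX2-2 rose (edgeR adjusted p = 0.00745 and 0.0414, beside 3.73% of all genes higher), NR0B1 keeping and NKX2-2 losing its call whichever origin was left out (0.0151 to 0.0468 and 0.061 to 0.209), while PRKCB was at a log2 change of 0.18 and STEAP1 at 0.16. FLI1 could not be read from these sums, because 0.0405% of its reads were matched to its symbol. Of 5 markers of other cell types, PTPRC, KRT5 and ALB did not pass the filter on low counts, EPCAM was between 0.0315 and 2.92 CPM, and PECAM1 was at 0.361 ± 0.027 CPM untreated and 0.680 ± 0.188 CPM with doxycycline. With the origin as a block, the p-values rest on how far the change with doxycycline varied between the 4 origins. Without the block they also take in the differences between origins. Either variation may be partly technical, since nothing describes independent experiments.

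DDIT4 and CHAC1 rose and GDF15 fell with doxycycline, while the ATF4 mRNA itself did not pass the test. So 3 of the 10 genes passed the test, 2 upwards and 1 downwards, against 7.63% of all genes tested (3.73% higher and 3.91% lower). Without the block by origin 0 of the 10 passed in edgeR, where 1 gene of 15993 did (0.00625%) and 1155 had an unadjusted p under 0.05; DESeq2 without the block called 231 genes (1.44%), DDIT4 among the 0.657% higher and GDF15 among the 0.788% lower. DESeq2 with the block called SESN2 beside the same 3 genes, so 3 of the 10 were among its 5.31% of genes higher and 1 among its 6.7% lower (12% in all). At an unadjusted p under 0.05 there were 7 of the 10 in edgeR with the block, where 24.8% of all genes were, and 2 of the 10 without it, where 7.22% were. Doxycycline was above untreated in all 4 pairs for 6 of the 10 genes, which 17.3% of all genes did, and below in all 4 pairs for GDF15 alone, which 15.9% of all genes did. The pairs are the same population or clone with and without doxycycline, so the block removes the differences between clones, which were wide for several of these genes. In simulated data both fits with the block made a larger share of false calls than the nominal rate. Calls close to the threshold in those fits are therefore uncertain.

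**Figure D1:**
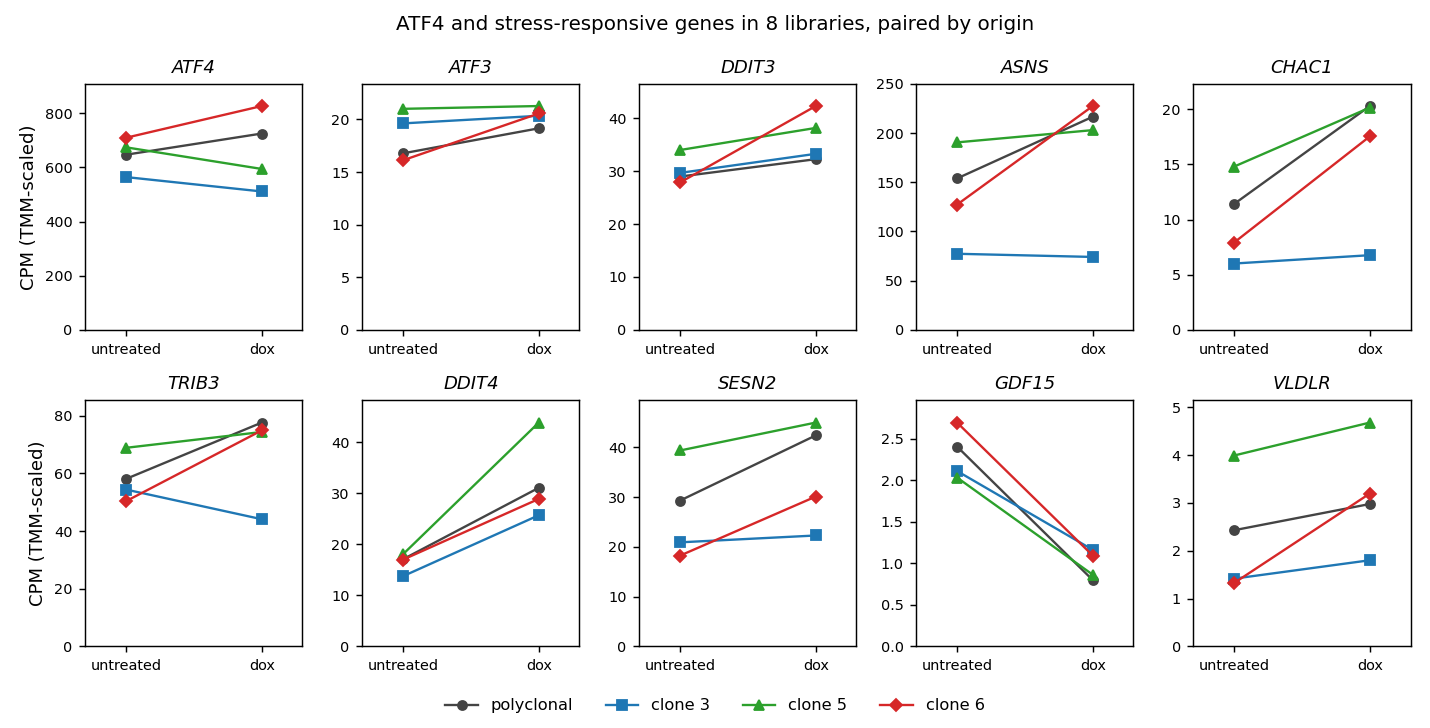
CPM (TMM-scaled, linear axis from 0) of each of the 10 genes in the 8 libraries, with a line joining the untreated and doxycycline (dox) culture of each origin. DDIT4 rises and GDF15 falls along all 4 lines without overlap of the groups, ATF4 rises along 2 and falls along 2, and the clone 3 line lies lowest in ASNS and CHAC1.

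ATF4 lies on chromosome 22 of GRCh38 (39520559 to 39522686, plus strand). Its mRNA was at 647, 564, 674 and 709 CPM in the untreated polyclonal population and clones 3, 5 and 6, and at 725, 511, 594 and 827 CPM in the same order with doxycycline. The groups overlapped throughout, with 2 pairs higher and 2 lower. It averaged 649 ± 62 CPM untreated and 664 ± 140 CPM with doxycycline (SD over 4 cultures each), and the fitted log2 change was 0.02 (SE 0.08, edgeR adjusted p = 0.931). Leaving out the polyclonal population or clone 6 turned the sign, to -0.04 and -0.05. One RefSeq transcript, NM_182810.2, carried 98.2% of the ATF4 reads. The 2 libraries of an origin hold between 17585 and 25555 ATF4 reads each, so counting error within a pair was small, and all 4 pairs lay outside it: the ratio was 1.12 in the polyclonal population (95% counting interval 1.10 to 1.14), 0.906 in clone 3 (0.887 to 0.925), 0.882 in clone 5 (0.864 to 0.900) and 1.16 in clone 6 (1.14 to 1.19). These intervals cover the counting of reads only and not the variation between cultures.

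ATF3, a repressor and activator of the same protein family that is induced early in many stresses, was at 16.8, 19.6, 21.0 and 16.1 CPM untreated and at 19.2, 20.3, 21.3 and 20.6 CPM with doxycycline. It was higher in 4 of 4 pairs but by little, and the groups overlapped (log2 fold change 0.15, SE 0.09, edgeR adjusted p = 0.336). DDIT3 encodes CHOP, the C/EBP relative that drives death under endoplasmic reticulum stress. Its counts were 29.0, 29.7, 34.0 and 27.9 CPM untreated against 32.3, 33.3, 38.2 and 42.3 CPM with doxycycline. Clone 6 moved most, from the lowest untreated to the highest treated value, and the other 3 pairs rose by nearly equal log2 ratios of 0.15 to 0.16. The fitted change of DDIT3 was 0.27 (SE 0.09) and did not pass (edgeR adjusted p = 0.12). None of the 3 transcription factors was called.

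CHAC1, which degrades glutathione and is among the most ATF4-dependent mRNAs known, was at 11.4, 6.02, 14.8 and 7.92 CPM in the untreated polyclonal population and clones 3, 5 and 6, and at 20.3, 6.77, 20.1 and 17.5 CPM with doxycycline. Every pair was higher with doxycycline, yet the treated clone 3 culture lay below 3 of the 4 untreated cultures, so the groups overlapped. The mean went from 10.0 ± 3.9 to 16.2 ± 6.4 CPM (SD, n = 4 each), a 1.57-fold rise (log2 fold change 0.65, SE 0.16, edgeR adjusted p = 0.0484). That call sat just inside the threshold and was lost without the block (adjusted p = 0.809), with DESeq2's size factors (0.0537), with curated transcripts alone (0.0922) and without the polyclonal population, clone 5 or clone 6 (0.138 to 0.142). Nearly all CHAC1 reads (99.8%) belonged to NM_024111.6.

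ASNS makes asparagine from aspartate and glutamine, and its promoter is a classic site of ATF4 action. It was at 154, 77.3, 190 and 127 CPM untreated and at 217, 74.1, 203 and 227 CPM with doxycycline. The polyclonal population and clone 6 were clearly higher, clone 5 slightly higher and clone 3 within counting error, and the treated clone 3 culture was the lowest of all 8. With that spread the fitted log2 change of 0.34 (SE 0.14) did not pass (edgeR adjusted p = 0.169). Its 7 matched transcripts shared the reads, the most abundant holding 44.8%.

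DDIT4, also called REDD1, restrains mTORC1 and is induced by energy stress, low oxygen and glucocorticoids as well as by ATF4. It had 17.1, 13.8, 18.1 and 17.0 CPM untreated and 31.1, 25.7, 43.8 and 28.9 CPM with doxycycline. Each treated culture lay above each untreated one, which 2.64% of all genes did. The mean rose from 16.5 ± 1.9 to 32.4 ± 8.0 CPM (SD, n = 4 each), 1.94-fold (log2 fold change 0.95, SE 0.10, edgeR adjusted p = 0.00611). DDIT4 was the member with the smallest p, and it stayed called when any 1 origin was left out (adjusted p 0.0157 to 0.0329). Without the block its log2 change was 0.97 and its adjusted p 0.15 in edgeR and 0.000268 in DESeq2.

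SESN2, a sestrin that senses leucine and holds mTORC1 in check, was at 29.3, 20.9, 39.4 and 18.3 CPM untreated and at 42.4, 22.3, 45.0 and 30.1 CPM with doxycycline. Its 4 pairs all rose while its groups overlapped widely, and the log2 change of 0.38 (SE 0.11) just missed (edgeR adjusted p = 0.0793). Under DESeq2 with the block, and under a filter at 1 count in any library, SESN2 was called (adjusted p = 0.0369 and 0.0487). TRIB3, a pseudokinase that binds AKT and feeds back on ATF4, was at 58.1, 54.4, 68.8 and 50.3 CPM untreated and at 77.6, 44.1, 74.3 and 74.9 CPM with doxycycline. It was higher in 3 pairs and lower in clone 3, with a fitted log2 change of 0.20 (SE 0.13, edgeR adjusted p = 0.4).

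GDF15, a stress cytokine of the TGF-β superfamily that acts on appetite through a brainstem receptor, went the other way. It was low to start with, at 2.40, 2.11, 2.03 and 2.69 CPM untreated, and at 0.798, 1.16, 0.863 and 1.09 CPM with doxycycline. Every treated culture lay below every untreated culture, which 2.29% of all genes did. The mean went from 2.31 ± 0.30 to 0.979 ± 0.176 CPM (SD, n = 4 each), 0.424 of the untreated level (log2 fold change -1.24, SE 0.21, edgeR adjusted p = 0.0189). The libraries held 56 to 95 GDF15 reads untreated and 26 to 40 with doxycycline. Its adjusted p was 0.238 without the block in edgeR and 0.00627 in DESeq2, and 0.057 to 0.0808 without the polyclonal population, clone 5 or clone 6.

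VLDLR, a lipoprotein and reelin receptor that ATF4 raises in stressed cells, was at 2.43, 1.42, 3.99 and 1.33 CPM untreated and at 2.98, 1.80, 4.68 and 3.20 CPM with doxycycline. All 4 pairs were higher and the groups overlapped, with a log2 change of 0.51 (SE 0.22, edgeR adjusted p = 0.201). Only 42.3% of the VLDLR reads implied by the authors' mean were matched to its symbol, and the reads shifted between 4 transcripts from library to library, so its values are uncertain. For each of the other 9 genes 91.6% to 99.2% were matched.

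**Figure D2:**
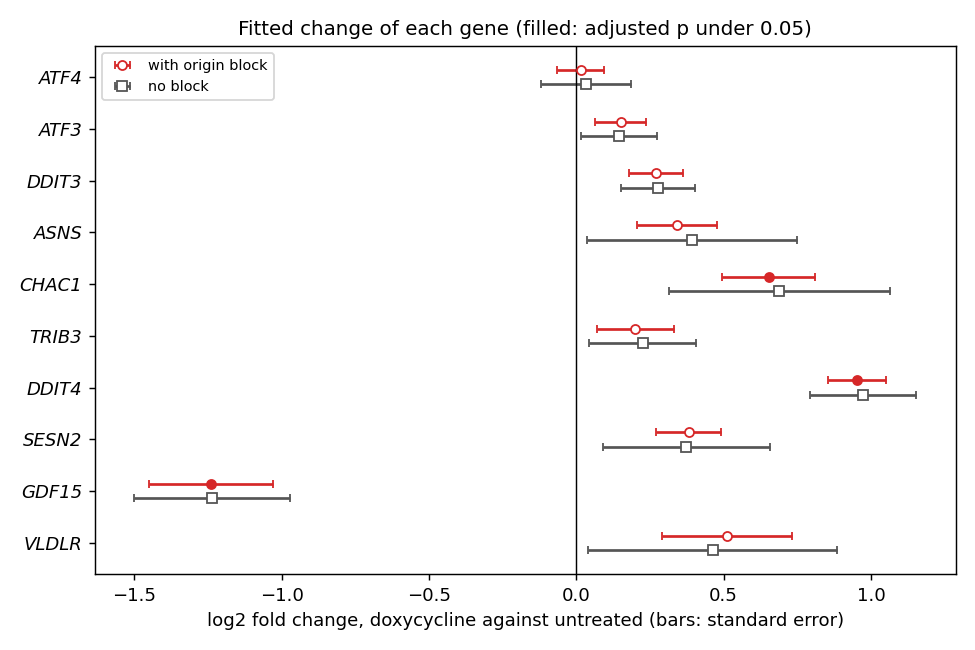
Fitted log2 fold change (doxycycline against untreated) of each gene with its standard error, from the fit with the origin block (circles) and without it (squares); filled symbols passed an adjusted p under 0.05. The estimates of the fits lie close together while the bars without the block are wider, and CHAC1, DDIT4 and GDF15 alone are filled.

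Levels between genes were compared only per length, as TPM summed over transcripts. In untreated cultures ATF4 came first at 834 ± 76 TPM (SD, n = 4), above 99.6% of genes. ASNS followed at 112 ± 39 TPM, its range overlapping that of DDIT3 at 63.2 ± 4.9 TPM, and TRIB3 lay below both at 48.3 ± 6.4 TPM. DDIT4 (16.9 ± 2.0 TPM), ATF3 (16.6 ± 2.0 TPM), SESN2 (13.3 ± 4.7 TPM) and CHAC1 (12.0 ± 4.7 TPM) were close together, their ranges over cultures overlapping. GDF15 at 3.62 ± 0.50 TPM and VLDLR at 0.415 ± 0.220 TPM were lowest, both ranges lying apart from the rest. With doxycycline DDIT4 stood at 33.3 ± 8.1 TPM, between TRIB3 and CHAC1 (19.3 ± 7.7 TPM).

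Origin by origin, the median log2 ratio of the 10 genes was highest in clone 6 and lowest in clone 3. Within an origin there is 1 library per condition and hence no test, so genes past 1.5-fold were counted on log2 ratios with a pseudocount of 0.5 CPM. In clone 6, 6 of the 10 genes were at least 1.5-fold higher, among 4.86% of all genes. They were CHAC1, VLDLR, ASNS, DDIT4, SESN2 and DDIT3, the last just past the line at 1.51-fold, with TRIB3 just short of it at 1.48-fold. The clone 6 count was 5 with a pseudocount of 2 CPM, 5 with curated transcripts alone and 4 with the deposited TPM. VLDLR rested in clone 6 on 33 reads untreated and 76 with doxycycline, with 42.3% of its reads matched over all libraries. In the polyclonal population there were 2, DDIT4 and CHAC1 (2.51% of all genes), and in clone 3 and clone 5 there was 1 each, DDIT4 (5.61% and 4.68%). GDF15 was at least 1.5-fold lower in every origin, as were 3.31%, 3.98%, 5.73% and 6.17% of all genes in the polyclonal population and clones 3, 5 and 6; with a pseudocount of 2 CPM it no longer was in clones 3 and 5. The median log2 ratio of the 10 genes was 0.65 in clone 6, 0.33 in the polyclonal population, 0.14 in clone 5 and 0.07 in clone 3, where the median of all genes was 0.01, 0.01, -0.002 and 0.01.

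CHAC1 went from 2.14-fold in clone 6 (counting interval 1.86 to 2.64) through 1.75-fold in the polyclonal population (1.57 to 2.01) and 1.35-fold in clone 5 (1.2 to 1.55) to 1.12-fold in clone 3 (0.926 to 1.37), the last not distinguishable from no change at this depth. ASNS took the same order, at 1.78-fold (1.71 to 1.87), 1.41-fold (1.36 to 1.46), 1.07-fold (1.03 to 1.11) and 0.959-fold (0.906 to 1.01). TRIB3 and SESN2 followed that order too, so 4 of the 10 genes had their log2 ratios ranked clone 6, polyclonal population, clone 5, clone 3, a ranking chosen after the values were seen and held by 7.93% of all genes. DDIT4 did not, being 2.39-fold higher in clone 5 (2.19 to 2.70), 1.84-fold in clone 3 (1.66 to 2.10), 1.80-fold in the polyclonal population (1.65 to 2.01) and 1.68-fold in clone 6 (1.5 to 1.92). FEZF1 itself was lowered by log2 ratios of -0.67, -0.71, -0.81 and -1.02 in the polyclonal population and clones 3, 5 and 6. Clone 6 had the largest change in FEZF1, CHAC1 and ASNS, while the other origins ranked differently for FEZF1. A relation between these ratios was not tested. Clone 3 thus held a clear DDIT4 rise and a GDF15 ratio of 0.637 (0.363 to 0.827) beside ATF4 and TRIB3 below their untreated levels, with a TRIB3 ratio of 0.813 (0.756 to 0.869). These ratios carry a pseudocount of 0.5 CPM and their intervals carry none, so the ratio of a low gene such as GDF15 sits toward 1 in its interval.

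**Figure D3:**
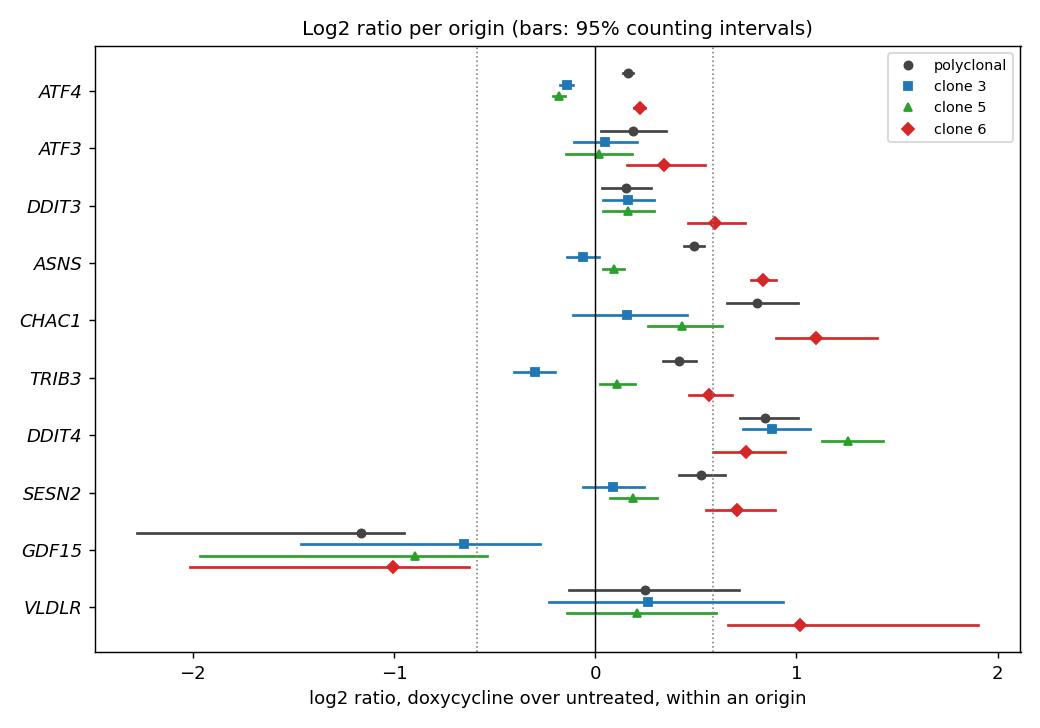
Log2 ratio of doxycycline over untreated for each gene within each origin (points, pseudocount 0.5 CPM) with 95% counting intervals without a pseudocount (bars), so that a point of a low gene sits toward 0 in its bar; dotted lines mark 1.5-fold in either direction. Clone 6 lies furthest right in 8 of the genes, DDIT4 is right of 0 in all 4 origins and GDF15 left of 0 in all 4.

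The origins also differed without doxycycline. Untreated CHAC1 and ASNS were each 2.46-fold higher in the highest culture (clone 5) than in the lowest (clone 3), SESN2 was 2.16-fold and VLDLR 3.01-fold higher in clone 5 than in clone 6, and the other 6 genes varied by 1.22-fold to 1.37-fold. A test of the difference between the 4 origins with treatment in the model, added after the data were seen, called 6 of the 10 genes, where it called 39.4% of all genes: ASNS (edgeR adjusted p = 0.00606), SESN2 (0.00744), CHAC1 (0.0104), VLDLR (0.031), ATF4 (0.0357) and DDIT4 (0.0454). Without clone 3 it called SESN2 alone of the 10 and 33.2% of all genes. ATF3, DDIT3, TRIB3 and GDF15 were not called (adjusted p 0.153 to 0.661). In simulated data the test of origin also made a larger share of false calls than the nominal rate, so its calls close to the threshold are uncertain.

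The profile of CHAC1 over the 8 libraries was most like those of ATF5, ASNS and CTH. Likeness was taken as the root mean square difference of log2 CPM, each gene centred on its mean, over 9444 genes with a mean of at least 10 CPM. The difference from CHAC1 was 0.152 for ATF5, a close relative of ATF4, then 0.196 for ASNS, with CTH, the enzyme that makes cysteine from cystathionine (0.218), STXBP2, which acts in vesicle fusion (0.222), and MAOA, a monoamine oxidase (0.230), next. SESN2 ranked 10 and TRIB3 ranked 49 by this measure, DDIT4 ranked 147, DDIT3 ranked 631 and ATF4 ranked 706, at a difference of 0.544 against the 0.637 by which CHAC1 departs from its own mean. ATF3 ranked 1837, at a difference of 0.602, and was the least alike of those measured among the 10 genes. Nearest to ATF4 mRNA were DCXR, ACOT8, TOM1L1, RNASEH2A and MPLKIP (0.0442 to 0.0590), and TRIB3 was the closest of the 7 others measured among the 10 genes, at rank 2783. The TRIB3 difference of 0.224 was larger than the 0.207 by which ATF4 departs from its own mean. The 8 libraries come in pairs from the same 4 origins, so the points are not independent, and no test was made of the likeness.

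**Figure D4:**
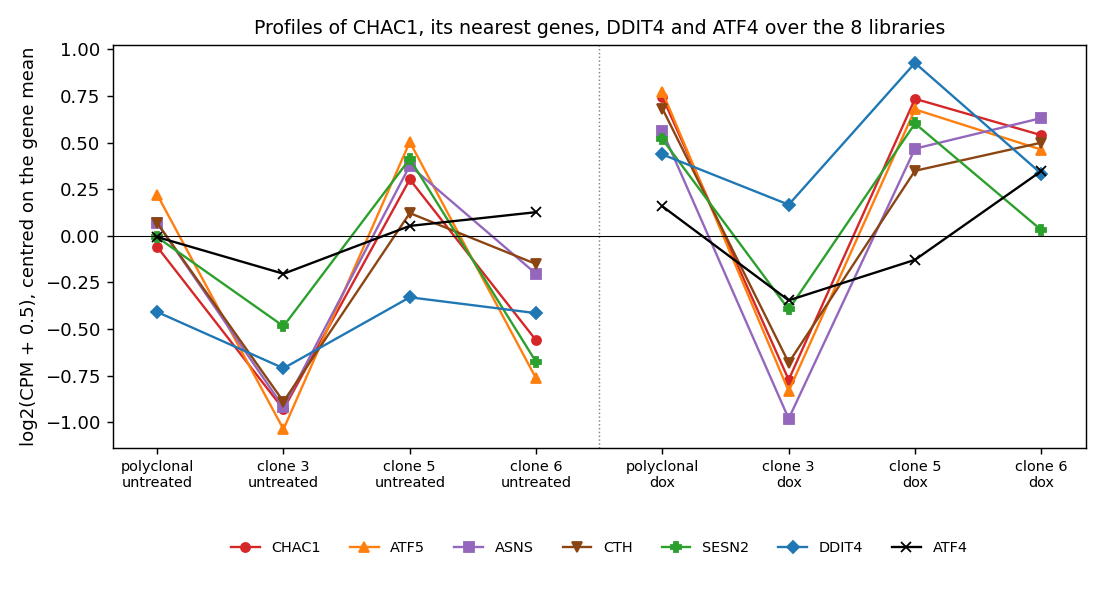
Log2(CPM + 0.5) centred on the gene's mean over the 8 libraries (y axis) in untreated (left) and doxycycline (right) cultures, for CHAC1, its 3 nearest genes, SESN2, DDIT4 and ATF4. CHAC1, ATF5, ASNS and CTH dip together in both clone 3 libraries, DDIT4 is below 0 in the 4 untreated and above 0 in the 4 treated cultures, and ATF4 stays within 0.4 of its mean.

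ATF5 was at 204, 85.1, 248 and 103 CPM untreated and at 299, 98.1, 280 and 241 CPM with doxycycline, higher in 4 of 4 pairs. Its log2 change of 0.54 (SE 0.16) did not pass (edgeR adjusted p = 0.086). JDP2, another relative that binds the same kind of site, was higher in 4 of 4 pairs too, at a log2 change of 0.51 that did not pass (SE 0.16, edgeR adjusted p = 0.0938). Of 14 dimer partners and relatives of ATF4, among them the C/EBP, JUN and FOS proteins, 0 passed in edgeR with the block and 4 had an unadjusted p under 0.05, as 24.8% of all genes did. DESeq2 with the block called 2 of them and 12% of all genes.

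Among 9 genes for the eIF2α kinases, the phosphatase subunits, eIF2α and the mitochondrial relay, 1 passed, and downwards, beside 3.91% of all genes: EIF2AK3, which encodes the endoplasmic reticulum kinase PERK, went from 18.2 ± 1.6 to 13.6 ± 2.1 CPM (log2 fold change -0.43, SE 0.10, edgeR adjusted p = 0.0415), without overlap of the groups. That call was lost whichever origin was left out (adjusted p 0.0677 to 0.134). DELE1, the mitochondrial stress relay, had a log2 change of -0.36 (adjusted p = 0.166, with 56.5% of its reads matched) and PPP1R15A, the stress-induced phosphatase subunit GADD34, 0.24 (adjusted p = 0.0873) in the same fit. EIF2AK1, counted among the 9, had 22.9% of its reads matched, so its values are uncertain. None of the 5 eIF2B subunits passed in edgeR or in DESeq2 with the block, and 0 had an unadjusted p under 0.05, with EIF2B3 at 0.07 and EIF2B5 at 0.07.

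Of 12 amino acid transporter genes, 2 rose and 1 fell, beside 3.73% of all genes higher and 3.91% lower. SLC43A1, which carries large neutral amino acids, went from 15.0 ± 1.1 to 27 ± 5.9 CPM without overlap (log2 fold change 0.82, SE 0.11, edgeR adjusted p = 0.00861), and SLC6A9, a glycine transporter, rose by 0.36 (SE 0.06, adjusted p = 0.0171). SLC7A1, the carrier of arginine and lysine and itself a known ATF4 target, was lower in 4 of 4 pairs (log2 fold change -0.29, SE 0.07, edgeR adjusted p = 0.0433). SLC43A1 kept its call when any 1 origin was left out, SLC6A9 lost it without clone 5 or clone 6 (adjusted p up to 0.1), and SLC7A1 lost it without any 1 of the 3 clones (up to 0.163). SLC7A3 was at 0.64 (adjusted p = 0.0501) and SLC7A11, the cystine carrier, at -0.26 (adjusted p = 0.434), ranging from a log2 ratio of -1.0 in the polyclonal population to 0.22 in clone 6 with 73.4% of its reads matched. Of 13 enzymes of amino acid synthesis, CTH alone passed, beside 3.73% of all genes higher, from 20.0 ± 5.7 to 27.7 ± 9.8 CPM (log2 fold change 0.44, SE 0.10, edgeR adjusted p = 0.0438, with 70.6% of its reads matched). The CTH call was lost whichever origin was left out (adjusted p 0.061 to 0.148). PSAT1, of serine synthesis, was at 0.32 (adjusted p = 0.113), and ALDH1L2, a mitochondrial folate enzyme, at 1.52 with a standard error of 0.70 (adjusted p = 0.231), on 0 to 4.61 CPM. ALDH1L2 had 59.5% of its reads matched, and MTHFD2, counted among the 13 enzymes, 39.6%.

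None of the 20 cytosolic aminoacyl-tRNA synthetases, many of them standard ATF4 targets, passed in edgeR with the block, where 7.63% of all genes did. An unadjusted p under 0.05 was found for 4, beside 24.8% of all genes, and DESeq2 with the block called 3, beside 12% of all genes. FARSB, a subunit of the phenylalanine enzyme, was at a log2 change of -0.35 (edgeR adjusted p = 0.0628). The median change of the 20 was 0.05. YARS1, counted among them, had 34.5% of its reads matched. The order of log2 ratios seen for CHAC1 and ASNS, clone 6 highest and clone 3 lowest, was held by 9 of the 20, and 7.93% of all genes held it. In the other groups it was held by 4 of 14 dimer partners, 4 of 17 endoplasmic reticulum chaperones and targets of XBP1 or ATF6, 3 of 13 synthesis enzymes, 3 of 17 further ATF4 or DDIT3 targets, 2 of 12 transporters, 1 of 9 kinase and relay genes, 0 of 5 eIF2B subunits and 0 of 13 family relatives. The element letters, found in 4.46% of all genes, occurred in 7 of the 16 synthetase genes with a window and in 5 of 10 transporters. They occurred in 2 of 11 dimer partners, 2 of 12 relatives, 2 of 13 further targets, 1 of 7 synthesis enzymes, 1 of 8 kinase and relay genes, 0 of 5 eIF2B subunits and 0 of 17 chaperones.

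Of 17 further stress-responsive targets of ATF4 or DDIT3 that were tested, 5 rose and 0 fell, beside 3.73% of all genes rising. STC2, a secreted glycoprotein that limits calcium entry, went from 28.1 ± 3.5 to 43.4 ± 4.4 CPM without overlap (log2 fold change 0.63, SE 0.07, edgeR adjusted p = 0.00635). GADD45A, a growth arrest gene, rose by 0.44 (SE 0.06, adjusted p = 0.0124) and KLHL24, a ubiquitin ligase adaptor, by 0.75 (SE 0.13, adjusted p = 0.0214). VEGFA, the angiogenic factor, and MAP1LC3B, the autophagosome protein LC3B, rose by 0.37 and 0.26. BBC3, the death gene PUMA, was at 0.67 (edgeR adjusted p = 0.0528) and EIF4EBP1, the translation inhibitor 4E-BP1, at 0.23 (adjusted p = 0.348). Of the 17, 9 were higher in 4 of 4 pairs, the 5 called genes among them, as 17.3% of all genes were. In edgeR without the block 0 of the 17 passed, where 1 gene of 15993 did. STC2 alone of the 5 kept its call whichever origin was left out (adjusted p 0.0171 to 0.0384). GADD45A lost it without clone 5 or clone 6 (up to 0.0775), KLHL24 without clone 3 or clone 5 (up to 0.0733), VEGFA without the polyclonal population, clone 3 or clone 5 (up to 0.172) and MAP1LC3B without any 1 of the 4 (0.0538 to 0.154).

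Genes of the other arms of the endoplasmic reticulum stress response did not pass in edgeR with the block. Of 17 chaperones and targets of XBP1 or ATF6, 0 passed in edgeR with the block, 4 had an unadjusted p under 0.05 (24.8% of all genes), DESeq2 with the block called 3, all lower (6.7% of all genes), and 12 had a log2 change below 0 (median -0.08). PDIA4, a disulphide isomerase, was at -0.19 (edgeR adjusted p = 0.0939) and DNAJB9, a co-chaperone, at 0.19 (adjusted p = 0.204). DESeq2 with the block called PDIA4 among its 3 (adjusted p = 0.0159).

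**Figure D5:**
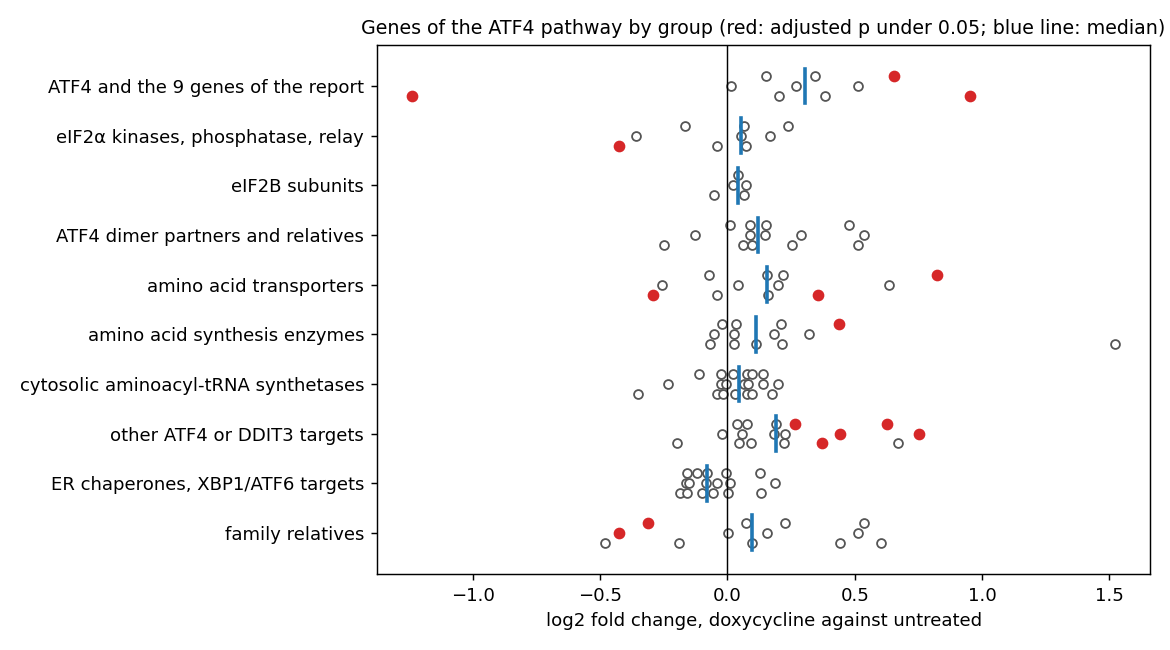
Log2 fold change (doxycycline against untreated, fit with the origin block) of every tested gene in each group of the pathway, 1 point per gene; red points passed an adjusted p under 0.05, open points did not, and blue lines mark medians. The further ATF4 or DDIT3 targets hold 5 red points, all above 0, and the synthetases, eIF2B subunits, dimer partners and chaperones hold 0.

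Of 13 family relatives of the 10 genes that were tested, 2 passed in edgeR with the block, both downwards, beside 3.91% of all genes. DESeq2 with the block called 3 higher and 2 lower, beside 5.31% and 6.7% of all genes. The 3 higher were TRIB2, JDP2 and SESN1 (DESeq2 adjusted p = 0.0074, 0.0468 and 0.0487). GDF11, of the same superfamily as GDF15, went from 126 ± 13 to 93.8 ± 12.7 CPM without overlap (log2 fold change -0.42, SE 0.06, edgeR adjusted p = 0.00967; 0.0521 without clone 5). LRP8, the closest relative of VLDLR, was at -0.48 (adjusted p = 0.11, with 34.5% of its reads matched). SESN1 was at 0.44 (adjusted p = 0.06) and SESN3 at 0.003 (adjusted p = 0.988) beside SESN2. TRIB2 was at 0.22 (adjusted p = 0.0543) and TRIB1 at 0.15 (adjusted p = 0.395), DDIT4L at 0.60 on 0.218 to 1.26 CPM (adjusted p = 0.28), CHAC2, the constitutive glutathione-degrading enzyme, at -0.19 (adjusted p = 0.26), ASNSD1 at 0.07 (adjusted p = 0.494) and CEBPG at 0.09 (adjusted p = 0.374), all from edgeR with the block.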

How the data were processed

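Total RNA of 8 cultures was sequenced as stranded mRNA libraries. The authors ran Salmon (0.14.1.2) on GRCh38 RefSeq transcripts and deposited, per transcript, estimated counts and TPM. Their DESeq2 table (2.11.40.6) was used only for the authors' deposited mean of normalized counts, an average signal over all libraries, to see how many reads each symbol received; its fold changes and p-values were not used. Of 158867 transcripts 72.6% were matched to a symbol, and their counts were summed and rounded.

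Main test: edgeR 4.0.16 in R 4.3.3, filterByExpr by group, TMM, origin and treatment in the model. Origins pair by design, as the cultures of an origin are the same clone or population; their deviations from the group means correlated at 0.406, 0.546, 0.590 and 0.582, against -0.395 to 0.179 between origins. DESeq2 1.42.0, other size factors and filters, curated transcripts, an effective-length offset and leaving out each origin were alternatives. Intervals are exact conditional binomial ones at 95% without a pseudocount, while the ratios beside them carry one of 0.5 CPM. The fits were tested on simulated data, where the share of false calls exceeded the nominal rate with the block in edgeR and DESeq2 and did not without it. It also exceeded that rate in the test of origin. Python 3.11.15 was used for sums and figures.

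The members, lists and tests were chosen with earlier results of these data known. Named are the 10 genes, FEZF1, in each list up to 3 called genes of smallest p and the 2 uncalled with the largest change, all family relatives tested, and the 5 genes nearest in profile to ATF4 and CHAC1. Of the genes this rule names, 2 are not reported here. VEGFA and MAP1LC3B, outside this rule, were named after their values were seen, to complete a count of 5. EIF2AK1, MTHFD2 and YARS1, also outside it, were named for their low share of matched reads.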

Additional observations from a re-analysis of the deposited data

Results flagged for a closer look

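Among 20 groups of 4 libraries (10 genes, each untreated and treated), 2 held a culture far from the other 3 by Dixon's gap ratio, where chance gives about 1. In the doxycycline group of ASNS, clone 3 lay lowest at 74.1 CPM, against 203 CPM in the next culture. In the doxycycline group of TRIB3, clone 3 lay lowest at 44.1 CPM, against 74.3 CPM in the next. Clone 3 was also the treated culture with the lowest CHAC1 (6.77 CPM), ATF4 (511 CPM), SESN2 (22.3 CPM) and DDIT4 (25.7 CPM).

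The response of 2 genes ran in opposite directions in different origins, beyond counting error in each pair. ATF4 had log2 ratios of 0.16 in the polyclonal population and 0.22 in clone 6, but -0.14 in clone 3 and -0.18 in clone 5. TRIB3 had 0.42 in the polyclonal population, 0.11 in clone 5 and 0.57 in clone 6, but -0.30 in clone 3. With 1 library per condition in an origin, these differences between origins were not tested.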

How the results depend on the processing

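The count of genes called was 1221 with the block by origin. It was 1 with no replicate block, 1920 under the DESeq2 Wald test with the block and 231 without it, 493 with curated transcripts alone, and 175 to 699 when 1 origin was left out, lowest without clone 5 and then clone 6 (230). Members called went from 3 to 0 with no replicate block and to 1 to 3 when 1 origin was left out, DDIT4 remaining alone without the polyclonal population, clone 5 or clone 6. ATF4 changed sign without the polyclonal population (-0.039) and without clone 6 (-0.054), with 0.068 without clone 3, and was not called in any setting.

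CHAC1 lost its call with no replicate block (0.69), in DESeq2 without the block (0.68, adjusted p = 0.642), with DESeq2 size factors (0.64), with curated transcripts (0.65) and without the polyclonal population, clone 5 or clone 6 (0.49 to 0.71; without clone 3 it was 0.80 and kept the call). DDIT4 lost it with no replicate block (0.97) and GDF15 with no replicate block (-1.24) and without those same 3 origins (-1.26 to -1.13; without clone 3 it was -1.37 and kept the call). SESN2 was gained under DESeq2 with the block (0.37) and the filter at 1 count in any library (0.38). GDF15 ceased to be 1.5-fold lower in clones 3 and 5 with a pseudocount of 2 CPM, leaving 0 members lower there. Members at least 1.5-fold higher in clone 6 went from 6 to 5 with that pseudocount, to 5 with curated transcripts alone and to 4 with the deposited TPM. Members that differed between origins numbered 6, and 1 to 6 when 1 origin was left out (1 without clone 3). The cause of these changes was not tested, except that leaving out an origin also leaves fewer samples. The filter at 10 counts in every library and the effective-length offset changed no call of a member.

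The libraries held 26 to 95 GDF15 reads each, and counting limits the precision of low genes.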
